A study of Arabidopsis thaliana with 12 samples.

Results

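On the lower arm of chromosome 4 of Arabidopsis thaliana, most genes stood higher in all 3 grandifolia-D lines than in wild type. From this arm, 29 of the genes with a mean difference above a doubling were selected by the limits that follow. They were taken from the loci AT4G33510 to AT4G40090, had a wild-type mean log2 value from 6 to under 10, and had a mean rise over 1.1, which is the average over the 3 mutants of the mutant group mean minus the wild-type mean on the log2 scale and corresponds to 2.14-fold. AT4G34250 (KCS16) and AT4G36280 (CRH1) were left out by rule. The 29 are 10.1% of the 287 arm genes in that wild-type range, of 561 arm loci and 20777 loci measured in all. Since the members were chosen on the difference between mutants and wild type, that difference is given below as a description, with no test.

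The study compared Col-0 wild type with gra1-D, gra2-D and gra3-D in that ecotype, mutant lines in which the title of the series places a duplication, and each of the 4 groups had 3 biological replicates. The seedlings were kept at 22 °C in a cycle of 16 h light and 8 h dark on MS medium, with no other treatment in the labels, and were sampled at stage 1.03, when RNA was taken from their vegetative part. ATH1 arrays measured it, 1 array per replicate, and the values below are log2 expression values. The labels give neither the number of copies of the segment nor the number of independent isolates of each line. In such whole tissue, fewer cells of a type and less RNA per cell cannot be told apart.

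A duplicated segment adds a copy of every gene that it carries. Transcript level commonly follows copy number in plants, but feedback can hold a gene back, and a gene whose regulators or signals change as well can move by more than its own dosage. For 12 of the 29 genes the names in the gene table give a role or a family. They include enzymes of serine, methionine and sulfate metabolism, an enzyme of lignin and a cytochrome P450 of the CYP96A family. Also among the 12 are a secreted protease, enzymes of phospholipid signalling, a G protein subunit, a metal-binding protein and nuclear proteins. The other 17 carry only a locus identifier there, and no role is given to them.

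Array medians ran from 6.36 to 6.43. The photosynthetic markers on the table, RCA and LHCA1, lay at 14.2 to 14.4, while the 5 flower markers lay between 3.35 and 5.004 and the 4 seed markers between 3.42 and 4.58. Of the 4 root markers, the beta-glucosidase gene PYK10 stood at 11.2 in wild type, whereas EXPA7, SHV2 (listed as COBL9) and RSL4, which mark root hairs, stood at 4.48, 4.31 and 4.44. PYK10 was lower in gra2-D by limma, at -0.54 ± 0.12 (SE, limma adjusted p = 0.0106), a call lost without gra2-D replicate 3 (adjusted p = 0.0526); the vascular marker SUC2 was lower there as well, at -0.26 ± 0.072 (SE, limma adjusted p = 0.0322), a call lost in 7 of 13 alternatives, among them any WT array or gra2-D replicate 1 or 3 left out (adjusted p up to 0.103). SUC2 stood at -0.22 and -0.25 in the other lines, and the summed log2 level of the 3 vascular markers ran from 25.4 to 25.5 in wild type and from 24.8 to 25.3 over the mutants. The part of root and vascular tissue in the results below was not tested. The summed log2 level of the 4 root markers ran from 24.1 to 24.98 in wild type, 24.3 to 24.7 in gra1-D, 24.05 to 24.2 for gra2-D and 24.3 to 24.6 for gra3-D.

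The mean rise of the 29 genes ran from 1.101 to 2.16 with a median of 1.17, or 2.26-fold. The other 258 arm genes of the same wild-type range had a median of 0.88, or 1.84-fold, and all 20777 loci a median of -0.0092. By line, the median rise of the 29 was 1.17, 1.21 and 1.16 (gra1-D, gra2-D and gra3-D in turn), against 0.86, 0.88 and 0.89 for the other arm genes. Of the mean rises, 12 were 1.2 or higher, and 17 lay between 1.1 and 1.2. For 8 of the 29 the mean rise lay within 2 SE of 1, the value of an exact doubling. In each of the 29 genes all 9 mutant arrays lay above all 3 wild-type arrays, as they did in 248 of the 258 other arm genes and in 4.12% of all loci. That separation follows from the choice of the genes.

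**Figure D1:**
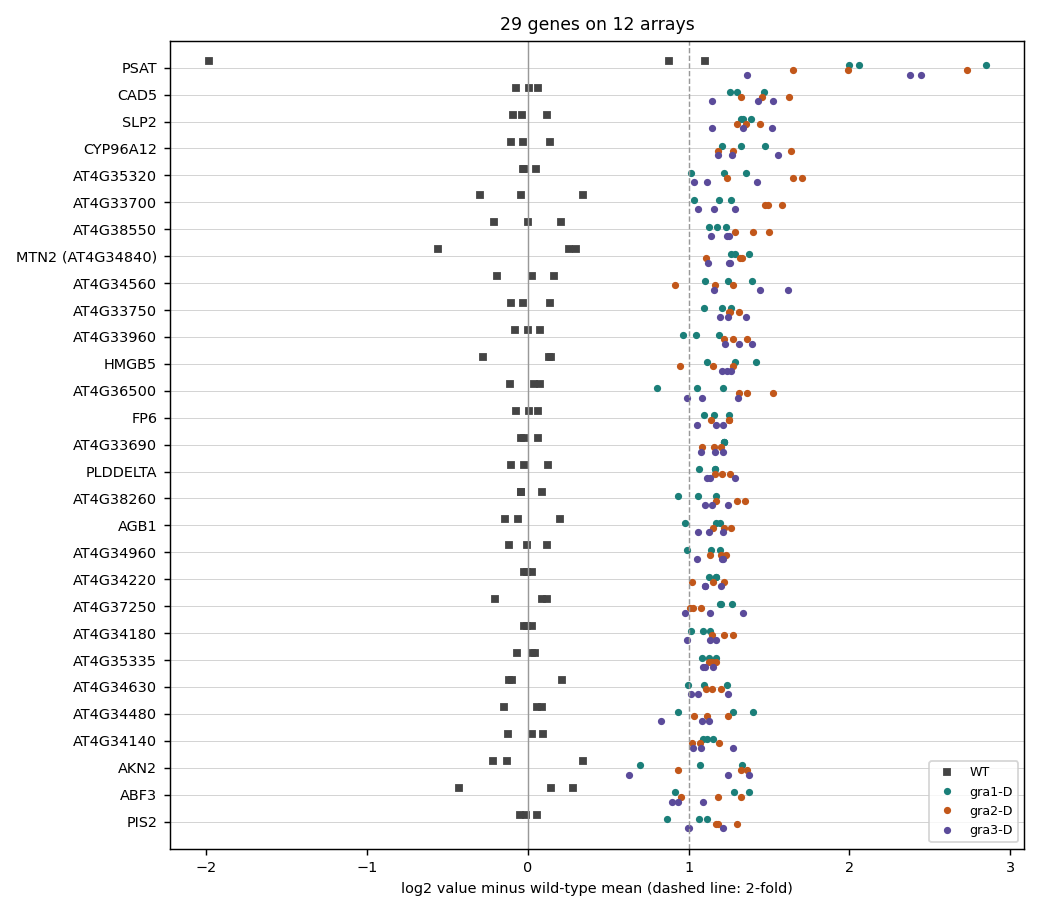
Log2 value minus the gene's wild-type mean for the 29 genes, in order of mean rise, with 1 point for each of the 12 arrays (squares for wild type, coloured circles for the mutants). The mutant points lie to the right of the wild-type points in every row, and the lowest wild-type point is that of PSAT in replicate 3.

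PSAT (AT4G35630) encodes phosphoserine aminotransferase of the plastid pathway that makes serine from a glycolytic intermediate, and it had the largest mean rise. Its log2 values were 7.66, 7.88 and 4.79 in wild type, with gra1-D at 8.84, 9.62 and 8.77, gra2-D at 8.77, 9.50 and 8.43 and gra3-D at 8.14, 9.22 and 9.15. The wild-type replicates disagreed, with replicate 3 far below the others, and the 9 mutant arrays lay between 8.14 and 9.62. The mean rise of 2.16 ± 0.51 (SE) fell to 1.17, or 2.25-fold, when WT replicate 3 was left out, and stood at 2.60 and 2.71 without WT replicates 1 and 2. Over all 29, limma called 29, 29 and 28 higher in gra1-D, gra2-D and gra3-D, where 2.82%, 5.24% and 3.13% of all loci were called higher and 95.3%, 96.1% and 97.3% of the 258 other arm genes were called. The rule used these contrasts, which share the wild-type arrays, so nothing is read from the counts.

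The remaining enzymes of the serine pathway were followed from a list of 6 loci, all of them on the array table. EDA9 (AT4G34200), a phosphoglycerate dehydrogenase gene that opens the pathway and lies in the same arm, rose by 0.77, 0.65 and 0.71 in the 3 mutants (limma adjusted p up to 0.000525). PGDH (AT1G17745), another dehydrogenase gene on another chromosome, rose in gra2-D by 0.82 ± 0.23 (SE, limma adjusted p = 0.0341) and stood at 0.62 in gra1-D and 0.45 in gra3-D, with adjusted p of 0.158 and 0.336. It no longer passed when 1 array was dropped, whether any of the 3 of wild type or gra2-D replicate 1 or 2 (adjusted p up to 0.133). AT2G17630, which the gene table lists as a phosphoserine aminotransferase as well, stood at -0.13, -0.18 and -0.14 in the 3 mutants, and PSP, the phosphatase of the last step, at -0.14, -0.01 and -0.13. The last locus of the list, AT3G19480, stood at -0.19, -0.15 and -0.27 (limma adjusted p from 0.197 to 0.486). Of the 6 loci, 2, 3 and 1 were called higher in gra1-D, gra2-D and gra3-D, beside 2.82%, 5.24% and 3.13% of all loci. The calls were EDA9 in all 3 lines, PSAT in gra1-D and gra2-D, and PGDH in gra2-D. The median of the 6 mean changes was 0.27, beside -0.0092 for all loci. Both the counts and that median include PSAT, which the rule chose, and EDA9, an arm gene. The 4 loci outside the arm had a median of -0.12.

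MTN2 (AT4G34840) encodes a methylthioadenosine nucleosidase, an enzyme of the cycle that returns the sulfur of a by-product of ethylene and polyamine synthesis to methionine. Its values were 6.81, 6.77 and 5.96 in wild type, with gra1-D at 7.78, 7.89 and 7.80, gra2-D at 7.85, 7.83 and 7.62 and gra3-D at 7.77, 7.77 and 7.63. As for PSAT, WT replicate 3 was the low one, and the mean rise of 1.26 ± 0.14 (SE) became 0.98 without it, close to a doubling. Its paralog MTN1 (AT4G38800) lies in the same arm at a higher level, with a wild-type mean of 10.66, and rose by 0.71, 0.66 and 0.75 in the 3 mutants (limma adjusted p up to 1.7e-05).

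AKN2 (AT4G39940) encodes an adenosine phosphosulfate kinase, which makes the active sulfate that glucosinolate synthesis uses. The values were 9.42, 8.95 and 8.86 in wild type, with gra1-D at 10.41, 9.78 and 10.15, gra2-D at 10.44, 10.01 and 10.40 and gra3-D at 9.71, 10.32 and 10.45. The spread within groups was the widest after PSAT, with a pooled SD of 0.319, and the mean rise was 1.11 ± 0.17 (SE). It was 1.28, 1.04 and 1.0005 without WT replicates 1, 2 and 3. CYP79B2 (AT4G39950), the next gene on the table and an enzyme that commits tryptophan to indole glucosinolates, rose by 0.98, 0.97 and 0.95 (limma adjusted p up to 0.0102; 0.0534 in gra3-D without WT replicate 3). Of 13 indole glucosinolate loci 2, 3 and 2 were called higher in gra1-D, gra2-D and gra3-D, namely AKN2 and CYP79B2 in each line and CYP83B1, which lies outside the shared arm, in gra2-D at 1.33 ± 0.15 (SE, limma adjusted p = 4.14e-05). Over all loci 2.82%, 5.24% and 3.13% were called higher in the 3 lines. The count includes AKN2, which the rule chose, and CYP79B2, which lies in the arm. Of the 258 other arm genes in the wild-type range, 95.3%, 96.1% and 97.3% were called higher. The list's median mean change was 0.15. CYP83B1 (AT4G31500) lies on chromosome 4, with a locus number below that of the first arm locus, and stood at 0.41 in gra1-D and 0.29 in gra3-D. Whether gra2-D carries an extra copy of CYP83B1 was not tested. The other APS kinase genes, APK, APK3 and APK4 on other chromosomes, had mean changes of 0.15, -0.06 and 0.20.

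CAD5 (AT4G34230), a cinnamyl alcohol dehydrogenase of the last step to lignin monomers, had the largest mean rise after PSAT among the selected genes. The pooled SD of CAD5 was 0.139, against a median of 0.123 for the selected genes. Its values were 7.38, 7.32 and 7.24 in wild type, with gra1-D at 8.79, 8.62 and 8.58, gra2-D at 8.94, 8.77 and 8.64 and gra3-D at 8.46, 8.75 and 8.84. No mutant array came within 1 log2 unit of the wild-type arrays, and the mean rise was 1.39 ± 0.085 (SE), or 2.63-fold. The family has 4 further genes in the same arm. Of these, ELI3-1 (AT4G37980) rose by 0.96, 0.94 and 0.93 and CAD9 (AT4G39330) by 0.82, 0.80 and 0.73 (limma adjusted p up to 0.000189 for both), while CAD6 and ELI3-2 had wild-type means of 3.997 and 4.51, under a level of 5 that is close to background here. ATCAD4 (AT3G19450), the other main lignin enzyme of the family, lies outside the arm and fell in gra2-D, with -0.42 ± 0.095 (SE, limma adjusted p = 0.0108), against -0.15 and -0.28 in gra1-D and gra3-D (adjusted p = 0.454 and 0.121). That call ended without WT replicate 1 or gra2-D replicate 2 (adjusted p up to 0.0535).

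CYP96A12 (AT4G39510) belongs to the cytochrome P450 family of CYP96A15, the midchain alkane hydroxylase of stem wax. It read 8.28, 8.11 and 8.04 in wild type, with gra1-D at 9.62, 9.35 and 9.48, gra2-D at 9.78, 9.33 and 9.42 and gra3-D at 9.33, 9.41 and 9.70, which left a gap of 1.05 between the lowest mutant and the highest wild-type array. Its mean rise was 1.35 ± 0.10 (SE), or 2.54-fold, and the 3 lines differed by only 0.0292. The 3 neighbouring genes CYP96A9, CYP96A10 and CYP96A11, of the same family and in the same arm, had wild-type means of 3.70, 3.88 and 3.83, close to background, and mean changes of 0.06, -0.07 and 0.01. CYP96A4 (AT5G52320) on chromosome 5 rose in gra2-D, at 0.76 ± 0.22 (SE, limma adjusted p = 0.038), which no longer passed when 1 array was dropped, whether any of the 3 of gra2-D or WT replicate 2 or 3 (adjusted p up to 0.136).

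SLP2 (AT4G34980) encodes a subtilisin-like serine protease and had the highest wild-type level of the 29. Values of 9.88, 9.67 and 9.73 in wild type, with gra1-D at 11.14, 11.10 and 11.09, gra2-D at 11.20, 11.12 and 11.06 and gra3-D at 10.90, 11.10 and 11.28 gave a mean rise of 1.35 ± 0.075 (SE), or 2.55-fold, with 1.35, 1.37 and 1.34 in the 3 lines. Its relative SLP3 (AT2G19170) on another chromosome had a mean change of -0.03. Leaving out any wild-type array kept the rise of SLP2 between 1.31 and 1.41 and that of CAD5 between 1.36 and 1.43.

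Phospholipid signalling was represented by PLDDELTA (AT4G35790), a phospholipase D that releases phosphatidic acid at the plasma membrane, and PIS2 (AT4G38570), a phosphatidylinositol synthase. PLDDELTA read 8.52, 8.60 and 8.75 in wild type, with gra1-D at 9.79, 9.79 and 9.69, gra2-D at 9.83, 9.88 and 9.79 and gra3-D at 9.76, 9.91 and 9.74, a mean rise of 1.17 ± 0.062 (SE). The wild-type arrays spanned 8.52 to 8.75 and the mutant arrays 9.69 to 9.91. PIS2 read 7.69, 7.73 and 7.80 in wild type, with gra1-D at 8.86, 8.61 and 8.81, gra2-D at 8.93, 8.91 and 9.04 and gra3-D at 8.96, 8.74 and 8.74. Its gra2-D arrays lay above the gra1-D arrays and overlapped those of gra3-D, and its mean rise of 1.101 ± 0.069 (SE) was the lowest of the 29, with 1.02, 1.22 and 1.07 in the 3 lines. The 11 other phospholipase D genes, all outside the arm, had mean changes from -0.09 to 0.17, and PLDGAMMA2 (AT4G11830) among them fell in gra2-D, at -0.33 ± 0.081 (SE, limma adjusted p = 0.0182), a call that ended without WT replicate 1 or 2 or gra2-D replicate 1 (adjusted p up to 0.0715). PIS1, the other phosphatidylinositol synthase gene, had a mean change of 0.0051.

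AGB1 (AT4G34460) encodes the beta subunit of the heterotrimeric G protein, which works in a complex with alpha and gamma subunits. It read 9.16, 8.82 and 8.90 in wild type, with gra1-D at 10.16, 9.94 and 10.13, gra2-D at 10.18, 10.11 and 10.22 and gra3-D at 10.02, 10.09 and 10.17, with a mean rise of 1.15 ± 0.076 (SE). Of the partner subunits followed here, the alpha subunit gene GP ALPHA 1 (AT2G26300) stood at -0.03, -0.11 and 0.12 and the gamma subunit gene GG1 (AT3G63420) at 0.23, 0.06 and 0.25 in the 3 mutants, with limma adjusted p from 0.201 to 0.941. Both of these lie on other chromosomes. XLG2 (AT4G34390), an extra-large G protein gene in the same arm, was not among those followed. It rose by 0.81, 0.98 and 0.93 in the 3 mutants.

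FP6 (AT4G38580), also named HIPP26, is a farnesylated metal-binding protein. Its values of 8.72, 8.80 and 8.86 in wild type, with gra1-D at 9.95, 9.89 and 10.05, gra2-D at 9.93, 10.04 and 10.04 and gra3-D at 9.96, 10.01 and 9.85 were among the tightest, with a pooled SD of 0.0747 and a mean rise of 1.18 ± 0.059 (SE). HIPP25 (AT4G35060), a relative in the same arm, rose by 0.88 ± 0.081 (SE, limma adjusted p = 8.51e-06) in gra1-D and 0.72 ± 0.081 (SE, limma adjusted p = 4.88e-05) in gra3-D, and by 0.29 ± 0.081 (SE, limma adjusted p = 0.0338) in gra2-D. The last call ended with only the 2 groups in the fit and without WT replicate 1 or 3 or gra2-D replicate 1 or 2 (adjusted p up to 0.119). The 4 relatives outside the arm had mean changes from -0.052 to 0.23.

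Nuclear proteins were represented by HMGB5 (AT4G35570), a high mobility group protein of chromatin, and ABF3 (AT4G34000), a bZIP factor that binds abscisic acid response elements. HMGB5 read 7.20, 7.21 and 6.79 in wild type, with gra1-D at 8.35, 8.48 and 8.18, gra2-D at 8.34, 8.22 and 8.01 and gra3-D at 8.27, 8.33 and 8.30. Here too WT replicate 3 was the lowest, and the mean rise of 1.21 ± 0.097 (SE) became 1.07 without it. The 5 other HMGB genes had mean changes from -0.26 to 0.06, and HMGB2 fell in gra3-D, at -0.34 ± 0.087 (SE, limma adjusted p = 0.0333), a call lost in 6 of 13 alternatives, among them arrays centred on chromosomes 1, 2, 3 and 5 and the leaving out of WT replicate 2 or 3 or gra3-D replicate 2 or 3 (adjusted p up to 0.137).

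ABF3 read 8.12, 7.40 and 7.98 in wild type, with gra1-D at 9.21, 8.75 and 9.12, gra2-D at 9.16, 8.79 and 9.02 and gra3-D at 8.73, 8.77 and 8.92. WT replicate 2 was the low array here, and the mean rise of 1.11 ± 0.14 (SE) was 0.89 without it, under a doubling. ABF3 was also the only one of the 29 with a rise under 1 in a line, 0.97 in gra3-D. ABF1 and ABF4 on other chromosomes had mean changes of 0.15 and 0.13. Of 14 cold and drought response genes, many of which carry abscisic acid response elements, limma called 2, 5 and 3 higher in gra1-D, gra2-D and gra3-D, LTI78 and ERD10 in all 3 lines, beside 2.82%, 5.24% and 3.13% of all loci, with a median mean change of 0.25; the part of ABF3 in this was not tested. Leaving out single arrays ended 4 of these calls. The gra2-D call of COR413-PM1 ended without gra2-D replicate 1 or 2 or WT replicate 1 (adjusted p up to 0.137 over the alternatives), that of DREB1A without gra2-D replicate 2 or WT replicate 2 or 3 (adjusted p up to 0.0737 over the alternatives) and that of ERD7 without gra2-D replicate 2 or WT replicate 1 (adjusted p up to 0.101 over the alternatives). The gra3-D call of RD20 ended without gra3-D replicate 2 or 3 or WT replicate 2 or 3 (adjusted p up to 0.115 over the alternatives).

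The 17 genes without a name had mean rises from 1.11 to 1.31, with a median of 1.16, against a median of 1.19 for the 12 named ones. AT4G35320 and AT4G33700 led them. AT4G35320 read 7.59, 7.51 and 7.50 in wild type, with gra1-D at 8.89, 8.75 and 8.55, gra2-D at 9.18, 8.77 and 9.24 and gra3-D at 8.96, 8.64 and 8.56. AT4G33700 read 7.12, 7.50 and 6.86 in wild type, with gra1-D at 8.35, 8.42 and 8.19, gra2-D at 8.65, 8.74 and 8.64 and gra3-D at 8.32, 8.45 and 8.22. In both, the gra2-D mean was the highest, at 1.53 and 1.52 above wild type. AT4G38550 (1.26), AT4G34560 (1.26), AT4G33750 (1.24) and AT4G33960 (1.22) followed in mean rise.

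The most even gene of the 29 was AT4G35335, with values of 8.14, 8.16 and 8.05 in wild type, with gra1-D at 9.20, 9.29 and 9.24, gra2-D at 9.26, 9.24 and 9.29 and gra3-D at 9.27, 9.22 and 9.21. Its pooled SD was 0.0419, and its mean rise 1.13 ± 0.050 (SE) was the same to within 0.0317 in the 3 lines. AT4G33690 (1.17), AT4G34220 (1.14) and AT4G34180 (1.13) also had pooled SDs under that of FP6. AT4G36500 (1.18), AT4G38260 (1.16), AT4G34960 (1.15), AT4G37250 (1.14), AT4G34630 (1.12), AT4G34480 (1.12) and AT4G34140 (1.11) complete the set. Just inside the threshold lay PIS2 (1.101), ABF3 (1.11) and AKN2 (1.11), and just outside it AT4G40050 (1.097), AT4G38660 (1.09) and WOX13 (AT4G35550; 1.09). A further 13 arm loci had a mean rise over 1.1 and were not members, 10 with a wild-type mean under 6, 2 at 10 or over and KCS16.

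The rule used the mean over the 3 mutants and not the differences among them, so these differences could be tested. A gene high in 1 line could still pass the rule through that line. PIS2 did so, with rises of 1.02, 1.22 and 1.07 in gra1-D, gra2-D and gra3-D. So did AT4G36500, AKN2, AT4G34180, AT4G34480, AT4G37250 and ABF3, whose mean rise without their highest line would be under 1.1. For these genes, a comparison of that line with another is not independent of the choice. By limma, 0 of the 29 genes differed between gra1-D and gra2-D, 0 between gra1-D and gra3-D and 0 between gra2-D and gra3-D, where 1.23%, 0.221% and 0.89% of all loci were called. The lowest adjusted p over the 29 was 0.200 in the first comparison, 0.932 in the second and 0.372 in the third. A difference between 2 lines had a median SE of 0.0953 for these genes, and AT4G36500 had the largest difference. It read 8.84, 8.81 and 8.66 in wild type, with gra1-D at 9.82, 9.98 and 9.57, gra2-D at 10.13, 10.29 and 10.08 and gra3-D at 9.76, 10.08 and 9.85. The 3 gra2-D arrays lay above the 3 gra1-D arrays, with the lowest of them level with the highest gra3-D array, and the difference of 0.38 stood between gra2-D (rise of 1.40) and gra1-D (1.02). With the replicate number as a block in the limma fit, AT4G36500 was called between these lines, at -0.38 ± 0.079 (SE, limma adjusted p = 0.0429). It was the only one of the 29 called between 2 lines. Since AT4G36500 passed the rule through gra2-D, this difference is given as a description.

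At an unadjusted p under 0.05, 7 of the 29 (24.1%) differed between gra1-D and gra2-D, 1 between gra1-D and gra3-D and 4 between gra2-D and gra3-D, against 8.86%, 3.86% and 9.91% of all loci. All 7 were higher in gra2-D: AT4G35320, AT4G33700, AT4G38550, AT4G33960, AT4G36500, AT4G38260 and PIS2. In 18 of the 29 (62.1%) gra2-D had the highest mean of the 3 lines, gra1-D in 8 and gra3-D in 3; among the 258 other arm genes gra2-D was the highest in 38.4%, and among all loci in 40.7%. These unadjusted counts are given as a description, since a gene high in 1 line could pass the rule through that line.

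**Figure D2:**
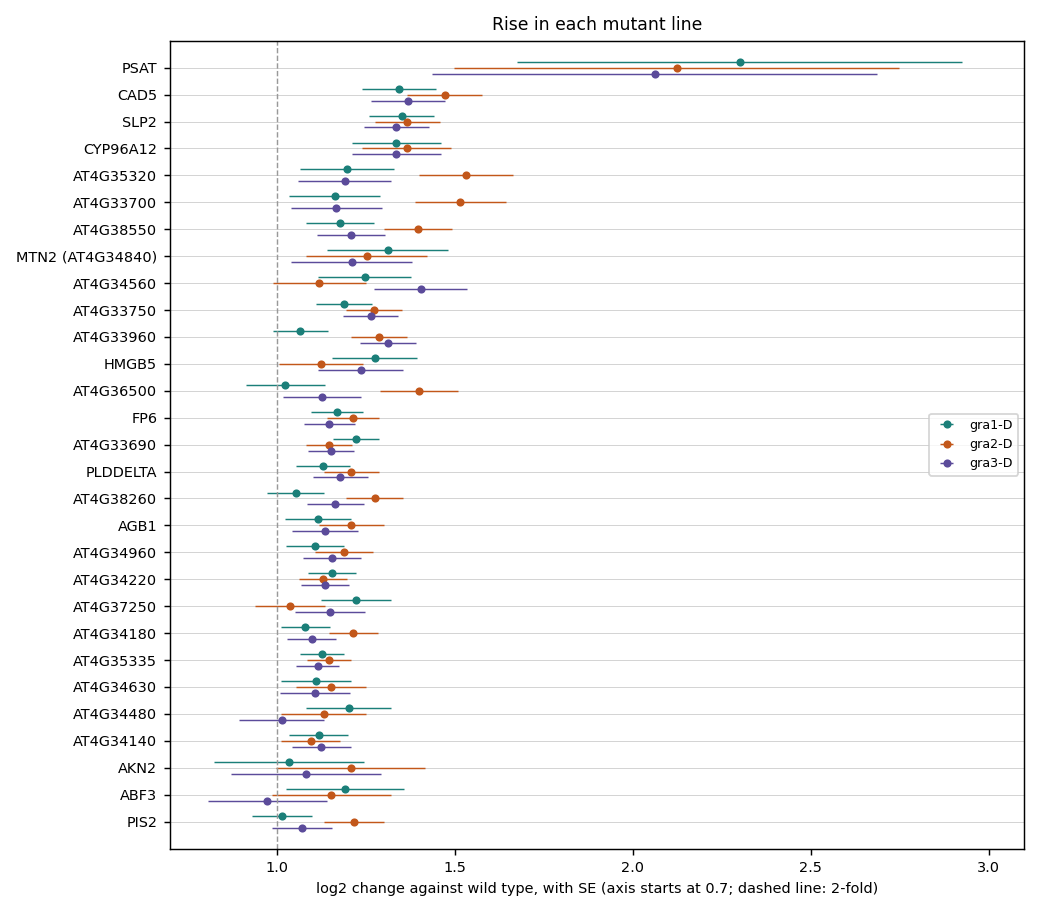
Log2 change against wild type in gra1-D, gra2-D and gra3-D for each of the 29 genes, with the SE from limma as bars. The SE bars of gra2-D lie apart from those of both other lines for AT4G35320, AT4G33700 and AT4G36500, and the bars of PSAT are the widest.

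The wild-type arrays entered every rise, so their spread bears on which genes passed the threshold. WT replicate 3 was the lowest of the 3 wild-type arrays in 17 of the 29 genes (58.6%), against 30.6% of the other arm genes and 26.5% of all loci. Without WT replicate 3, 7 of the 29 had a mean rise of 1.1 or less (MTN2, HMGB5, AKN2, AT4G34480, AT4G34630, AT4G34960 and AT4G35335). Without WT replicate 2 it was 7 as well (ABF3, AT4G37250, AKN2, AT4G34140, AT4G34630, AGB1 and PIS2), and without WT replicate 1 only PIS2. Applied without WT replicate 1, the rule chose 45 genes in place of 29, with 28 of the 29 among them; without WT replicate 2 it chose 27 (22 of the 29), and without WT replicate 3 it chose 30 (22 of the 29).

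The rule was also applied to the arrays of 2 replicate numbers at a time, and the genes it chose were read in the arrays of the third number, which that choice had not used. The sets so chosen share most of their genes with the 29, which were chosen on all 12 arrays, so the values are given as a description. Chosen on replicates 2 and 3, 42 genes with a median rise of 1.16 there had a median of 1.05 in replicate 1. Chosen on replicates 1 and 3, 32 genes went from 1.16 to 1.16 in replicate 2, and chosen on replicates 1 and 2, 31 genes went from 1.19 to 1.18 in replicate 3. In the left-out replicate, 57.1%, 81.25% and 74.2% of the chosen genes lay above a rise of 1, against 18.7%, 21.0% and 21.5% of the other arm genes. Above the rule's own 1.1 lay 42.9%, 56.25% and 61.3%, against 5.69%, 7.39% and 11.5%. The other arm genes are those that the rule passed over in that round.

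**Figure D3:**
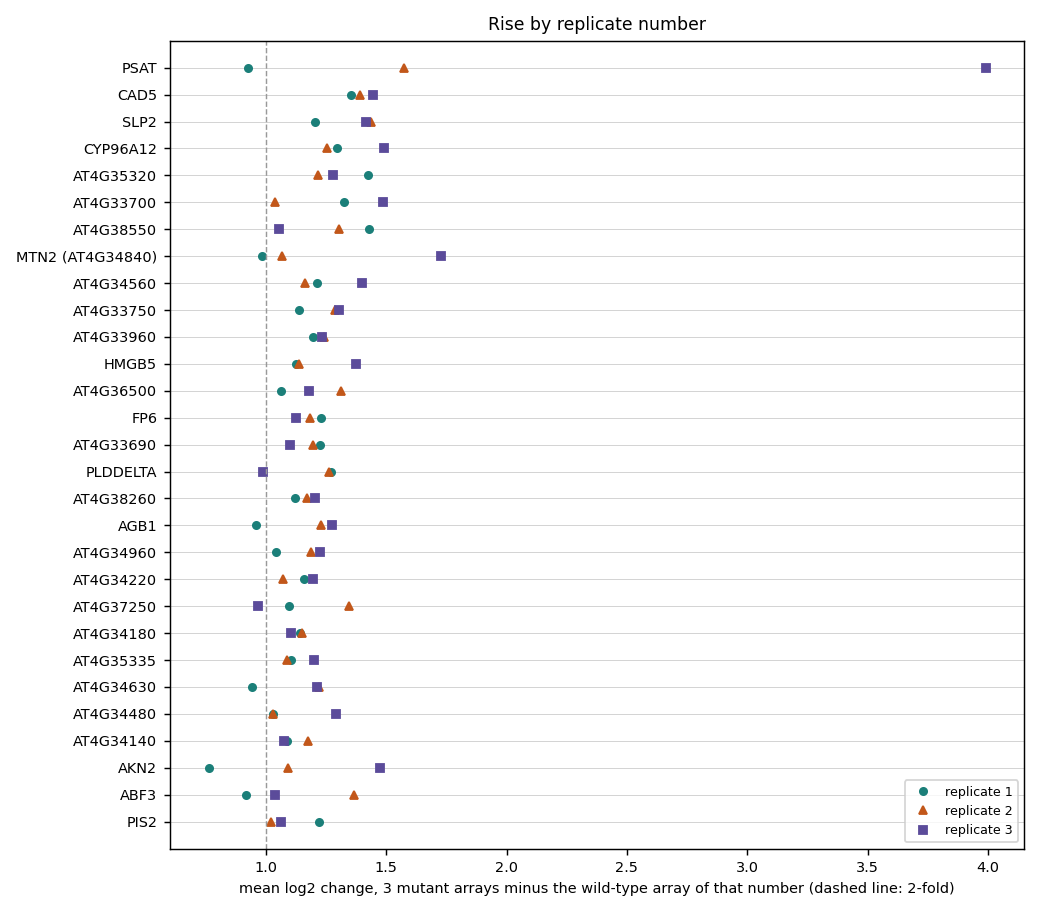
Mean over the 3 mutant arrays of 1 replicate number minus the wild-type array of that number, for each of the 29 genes (circles, triangles and squares for replicates 1, 2 and 3). PSAT and MTN2 have replicate 3 far to the right of the others, at 3.99 and 1.73, while CAD5 lies between 1.35 and 1.44 in all 3.

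The position of the 29 genes, which the rule used only to bound the arm, was uneven. In the first 140 arm loci on the table, AT4G33510 to AT4G35180, 16 of 77 genes in the wild-type range were members (20.8%). The next 140 loci held 6 of 70 (8.57%), the 140 after them 2 of 73 (2.74%) and the last 141 held 5 of 67 (7.46%), together 13 of 210 (6.19%). The non-members among the first 140 loci had a median rise of 0.83, against 0.90, 0.86 and 0.88 in the 3 later stretches. From a member to the next there are 28 steps, of which 9 passed no other gene of the wild-type range, and 16 of the 29 genes took part in such runs: AT4G33690, AT4G33700 and AT4G33750; AT4G33960 and ABF3; AT4G34220 and CAD5; AGB1 and AT4G34480; AT4G34960 and SLP2; AT4G35320 and AT4G35335; and AT4G38550, PIS2 and FP6. No test was made of this pattern.

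**Figure D4:**
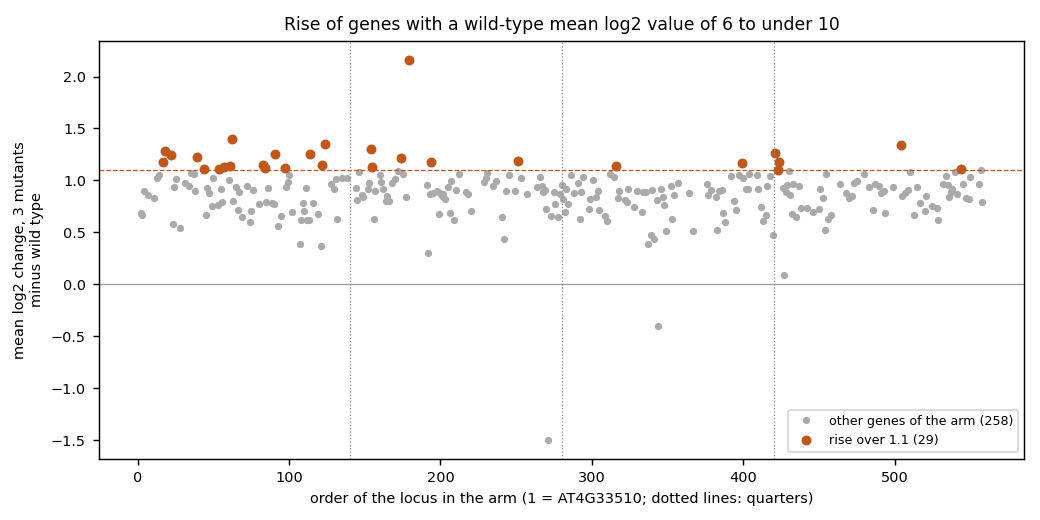
Mean rise of the 287 arm genes with a wild-type mean log2 value of 6 to under 10, in the order of the loci along the arm, with the 29 members in orange and the dashed line at 1.1. The first 140 arm loci hold 16 members, and the third stretch of 140 holds 2.

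By signal level, members made up 7.32% of the genes with a wild-type mean of 6 to 7 (6 of 82), 11.6% at 7 to 8 (10 of 86), 12.8% at 8 to 9 (10 of 78) and 7.32% at 9 to 10 (3 of 41). The median pooled within-group SD of the 29 was 0.123, against 0.104 for the other arm genes and 0.110 for all loci. In 27 of the 29 the lowest mutant array lay more than 0.6 above the highest wild-type array; PSAT (0.262) and AKN2 (0.282) had the narrowest gaps.

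Across the 12 named genes, the gene table gave 44 relatives on the array table that lie outside the arm. For PSAT these are loci of the serine pathway, with enzymes of other steps among them. For AGB1 they are the alpha and gamma subunits. By limma 0 of the 44 were called higher and 0 lower in all 3 mutants, where 0.45% and 1.51% of all loci outside the arm were called. At an unadjusted p under 0.05 it was 0 and 0, beside 1.96% and 5.99%. Of the 44, 7 were called in at least 1 mutant, beside 11.5% of loci outside the arm: CAD1, ATCAD4, HMGB2 and PLDGAMMA2 lower, and PGDH, CYP96A4 and APK4 higher. CAD1 (AT1G72680) fell in gra2-D, at -0.32 ± 0.074 (SE, limma adjusted p = 0.0131), a call that ended without WT replicate 2 (adjusted p = 0.0523). APK4 (AT5G67520) was called in gra2-D at 0.31 ± 0.083 (SE, limma adjusted p = 0.0298), with both group means under 5, so the size of that difference is uncertain; the call ended without gra2-D replicate 2 or 3 or WT replicate 2 or 3 (adjusted p up to 0.113 over the alternatives). The median mean change of the 44 was 0.0048. Of the 10 relatives inside the arm, 5 were called higher in all 3 mutants, EDA9 of the serine pathway among them. The rest, CAD6, ELI3-2, CYP96A9, CYP96A10 and CYP96A11, had wild-type means from 3.70 to 4.51, close to background. Of the 258 other arm genes in the wild-type range, 95.3%, 96.1% and 97.3% were called higher in gra1-D, gra2-D and gra3-D.

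**Figure D5:**
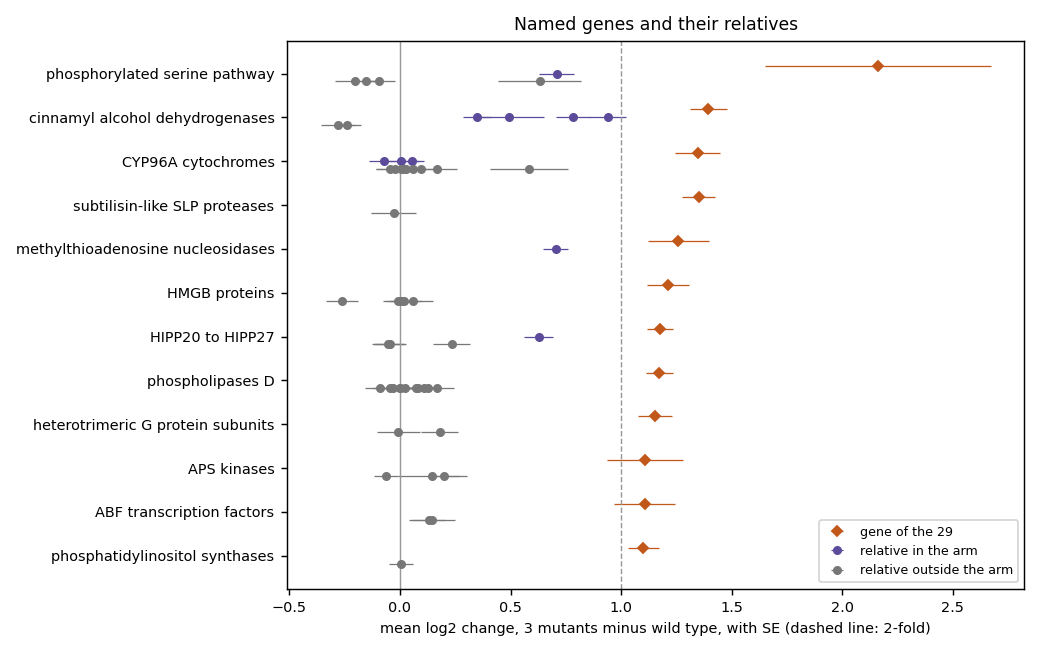
Mean log2 change over the 3 mutants, with its SE, for the 12 named genes (diamonds), their relatives in the arm (purple circles) and their relatives outside it (grey circles), by family, pathway or complex. The diamonds lie at 1.101 to 2.16, and the relatives outside the arm between -0.28 and 0.63.

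The lists that hold no member were read for context. Of 21 thaumatin-like protein genes, 3, 3 and 4 were called higher in gra1-D, gra2-D and gra3-D, beside 2.82%, 5.24% and 3.13% of all loci, with a median mean change of 0.060; the arm genes AT4G36010, AT4G38660 and AT4G38670 were higher in all 3 lines, and AT4G38660 lay just under the threshold used here. The other gra3-D call, of AT1G77700 outside the arm (limma adjusted p = 0.0497), was lost in 8 of 12 alternatives, among them any gra3-D array or WT replicate 1 or 2 left out (adjusted p up to 0.163). Of 19 cuticle and lipid transfer genes 2, LTP5 and LTP6, were lower in gra2-D, beside 6.23% of all loci (median mean change -0.043). The LTP5 call ended without gra2-D replicate 3 or WT replicate 1 or 3 (limma adjusted p up to 0.103 over the alternatives). The LTP6 call ended without gra2-D replicate 2 or 3 or any WT replicate (limma adjusted p up to 0.097 over the alternatives). Among 8 phragmoplast and cytokinesis genes, 1, 3 and 2 were lower (median mean change -0.24), where 2.76%, 6.23% and 2.97% of all loci were, with PLE (AT5G51600), a microtubule-bundling protein gene, lower in all 3 lines. The PLE call in gra1-D ended in 10 of 13 alternatives, among them the replicate block and any array of gra1-D or wild type left out (adjusted p up to 0.164), and that in gra3-D without gra3-D replicate 2 or 3 or WT replicate 2 or 3 (adjusted p up to 0.135 over the alternatives). HIK and NP3 were lower in gra2-D and SYP111 in gra3-D; the NP3 call ended without gra2-D replicate 2 (adjusted p up to 0.0523 over the alternatives), and that of SYP111 in 8 of 13 alternatives, among them WT replicate 2 or 3 or any gra3-D array left out (adjusted p up to 0.158).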

How the data were processed

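The log2 values of the 12 ATH1 arrays were used as the authors deposited them, in a table with 1 row per locus. They were made with RMA, per the submitters' processing notes, a method that corrects background, normalizes between arrays and summarises probes. The RMA version and the genome build are not given in the sources used here. TAIR10.1 gene names were matched to 20508 of 20777 loci and to 28 of the 29 members (not AT4G33750). No 2 arrays were identical. Arrays give no counts, so their number limits the precision.

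All 12 arrays entered 1 limma model (version 3.58.1, lmFit and eBayes, in R 4.3.3), with 8 residual and 5.28 prior degrees of freedom, after a run on simulated data. P-values are two-sided, with Benjamini-Hochberg adjustment over all 20777 loci in each contrast, and a call is an adjusted p under 0.05. SDs are within groups (n = 3), and SEs come from limma. The 3 comparisons with wild type share its arrays. Alternatives were other scalings, a variance trend, array weights, a filter on dim loci, the replicate number as a block and arrays left out. No label states a batch shared by equal replicate numbers. Deviations from the group means of same-numbered arrays correlated at 0.25 to 0.54 in all 9 pairs among wild type, gra1-D and gra2-D, but over 0.1 in 4 of the 9 pairs with gra3-D. The main model used no pairing. The replicate block and the rises by replicate number matched the arrays of all groups by number, gra3-D included.

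The members and lists were chosen with earlier results of these data known. Every member is named in the text. Relatives were taken by name of family, pathway (PSAT) or complex (AGB1) from the gene table after the members were known, since the planned protein comparison was not made. Tables and figures used Python 3.11.15 and matplotlib 3.10.9.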

Additional observations from a re-analysis of the deposited data

Results flagged for a closer look

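None of the 29 genes was called between 2 mutant lines without the replicate block; the following relatives and list genes were. HIPP25 (AT4G35060), the relative of FP6 in the arm, was higher in gra1-D than in gra2-D by 0.58 ± 0.081 (SE, limma adjusted p = 0.000913) and differed by -0.43 ± 0.081 (SE, limma adjusted p = 0.0224) for gra2-D minus gra3-D; the second no longer passed when 1 array was dropped, whether any of the 3 of gra2-D or gra3-D replicate 1 or replicate 3 (p adjusted up to 0.125). CYP83B1 (AT4G31500) differed by -0.92 ± 0.15 (SE, limma adjusted p = 0.00484) for gra1-D minus gra2-D and by 1.04 ± 0.15 (SE, limma adjusted p = 0.00209) for gra2-D minus gra3-D, calls that held in all 13 alternatives. Whether its copy number differs between the lines was not tested. PLDGAMMA2 (AT4G11830) was higher in gra1-D than in gra2-D by 0.45 ± 0.081 (SE, limma adjusted p = 0.0104), which ended without gra1-D replicate 2 or gra2-D replicate 1 (up to 0.0679). LTP6 (AT3G08770) was higher in gra1-D than in gra2-D by 0.46 ± 0.093 (SE, limma adjusted p = 0.0252), which ended in 5 of 13 alternatives (up to 0.131).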

How the results depend on the processing

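The count of members that differed between 2 lines stayed at 0 in each comparison under a further quantile normalization, arrays centred on chromosomes 1, 2, 3 and 5, an intensity trend, array weights, dim loci left out, only the groups compared, each array of the lines compared left out, and, added after seeing the data, without WT replicate 3. With the replicate block it was 1 between gra1-D and gra2-D (AT4G36500, limma adjusted p = 0.0429) and 0 in the other pairs. AT4G36500 had passed the rule through gra2-D. The block moved the loci called from 256 to 292 between those lines and from 1160 to 1461 for gra1-D against wild type. Of the relatives' and list genes' calls it ended those of PLE in gra1-D and AT1G77700 in gra3-D. The count of relatives outside the arm called the same way in all 3 mutants stayed at 0 in each alternative, all added after seeing the data.

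The median rise of the 29 genes was 1.18 after a further quantile normalization and 1.204 with arrays centred on chromosomes 1, 2, 3 and 5. Without WT replicates 1, 2 and 3 it was 1.22, 1.16 and 1.14. The genes chosen anew on 2 replicate numbers, which are not the same 29, had medians of 1.05 to 1.18 in the third. The rule chose 25 to 45 genes without any 1 array, 32 and 36 under the 2 scalings, 70 with a rise over 1.0, 12 with a rise over 1.2 and 23 with a wild-type mean from 7. Of the calls of relatives and list genes, 717 of 828 repeats kept the call and direction, and 111 kept the direction only. The planned comparison of closest paralogs by protein sequence was not run. Signal near background limits relatives with a mean under 5.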
